A study of Mus musculus with 12 samples.

Results

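The genes of the cytosolic ribosome's proteins were followed through the stromal vascular fraction (SVF) of mouse inguinal white fat with age and with loss of the receptor Pdgfrβ. Members were taken by name from the deposited gene tables: symbols made of Rpl or Rps and a number with at most 1 letter and 1 digit after it, plus Rplp0, Rplp1, Rplp2 and Rpsa, without Rpl3l and without names holding -ps, and with a mean of at least 10 over the 12 libraries. Of the 55536 genes listed, 88 had such a name and 85 reached that mean. They comprise 43 large subunit genes, 31 small subunit genes, 3 stalk genes, 5 paralogs (Rpl22l1, Rps27l, Rpl39l, Rpl7l1 and Rps4l) and 3 further genes that the annotation calls processed pseudogenes (Rps3a2, Rps3a3 and Rpl6l). Just below the mean of 10 lay Rpl32l at 5.50, Rps12l1 at 2.17 and the paralog Rpl10l at 0, and just above it lay Rpl39l at 17.1, Rpl24 at 18.8 and Rpl6l at 31.2.

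The 12 libraries came from 12 male mice of a mixed C57BL6/J-129SV background kept at room temperature, 4 per group. The controls, aged 2 or 12 months, carried Sma-CreERT2 with a Rosa26 reporter according to the methods, whereas the labels call them wild type. The 12-month-old Pdgfrβ-KO mice carried in addition floxed Pdgfrb alleles, and tamoxifen was given to induce recombination, so that the deletion reaches only cells in which the Sma promoter drove the Cre. For the sequenced mice the paper names tamoxifen only with the knockouts and does not say whether the controls received it. Each value is a polyadenylated-RNA read count divided by a size factor of its library and rounded, here called a normalized value, and the normalized values of a library summed to between 19616978 and 21872836. Pdgfrb itself was listed at 2536, 2367, 2349 and 2407 in the 2-month-old controls, at 3000, 4380, 3258 and 2399 in the 12-month-old controls and at 1882, 2145, 1707 and 1749 in the Pdgfrβ-KO libraries, so each knockout library lay below every control library. The fraction was labelled as primary cells of adipose tissue, and the summed normalized values of 10 fibroblastic progenitor markers made up 1.29 to 2.93% of a library against 0.328 to 0.632% for 10 markers of mature adipocytes.

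Ribosomal proteins join the ribosomal RNAs to form the small subunit, which reads the mRNA, and the large subunit, which joins the amino acids. Cells need the proteins in near-equal numbers, and their mRNAs are among the most abundant in any tissue. Most of these mRNAs begin with a C followed by a run of pyrimidines, the terminal oligopyrimidine (TOP) element, through which mTOR signaling adjusts their translation, so that their mRNA level alone does not give the amount of protein made.

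Because that element defines how this family is read, the sequences around the annotated starts were searched for it. A promoter entry was found in RefSeq (GRCm38.p6) for 61 of the 85 genes. A C followed by at least 4 bases that are each C or T, beginning within 10 bases of the annotated start on the gene's own strand, was present in 37 of these 61 genes, or 60.7%, against 34.4% of the 27025 genes with an entry. The other strand was not searched, since the element is read in the RNA. The windows below hold 14 bases before the annotated start and the first 14 bases from it, with the pyrimidine run in capitals, and were chosen to show small subunit, large subunit and paralog genes that have the run and 3 members that do not.
Rps6, chr4:86857354-86857381, minus strand: agcggaagtcgggCCTCTTTTTCgtgac
Rps27, chr3:90213635-90213662, minus strand: tttccgctttcgCTCCTTTCCggcggtg
Rps9, chr7:3704027-3704054, plus strand: ccgccttgtCTCTCTTTgtctcgggcct
Rpl38, chr11:114668566-114668593, plus strand: gcggaagcctcgttCTTTCCCCgttctc
Rpl22l1, chr3:28805494-28805521, plus strand: tgcggcgcaagcccgttCTCTTCCCacg
Rplp0, chr5:115559453-115559480, plus strand: tcttcgggtttcgaggaccgcctggttc
Rpl27, chr11:101442231-101442258, plus strand: cgctctgttcctgtctgctgctcgtgct
Rpl7l1, chr17:46782643-46782670, minus strand: tgaggctgcgcaagcgcagtagctgaag
In Rpl38 the run begins at the annotated start itself, and in Rps6 it begins 1 base before it. The absence of a run from a window says only that these letters were not found there, since an annotated start can differ from the one a cell uses.

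The members were very unequal in level. Over the 12 libraries 67 members had a mean normalized value above 5000 and 9 had one below 1000. Rps3, Rps14 and Rps3a1, all of the small subunit, had the highest means. Rps3 was listed at 44746, 37895, 34997 and 39561 in the 2-month-old controls, at 51811, 42911, 37467 and 60650 in the 12-month-old controls and at 81127, 72902, 69314 and 47714 in the Pdgfrβ-KO libraries. For Rps14 the values were 39918, 36136, 35138 and 36200, then 45308, 42683, 35052 and 54352, then 63624, 57823, 46997 and 38420, in the same order of groups. In both genes the ranges of the 2 control groups overlapped, and in Rps3 every knockout library lay above every 2-month-old library. Per kilobase of the main transcript the highest mean normalized values were 66423 for Rps14 and 42404 for Rps3a1, and the median was 15858 over the small subunit genes and 13835 over the large subunit genes.

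The lowest means belonged to a paralog, a pseudogene and Rpl24. The paralog Rpl39l, a copy of Rpl39 best known from testis, was listed at 13, 7, 10 and 2 in the 2-month-old controls, at 13, 31, 23 and 14 in the 12-month-old controls and at 43, 17, 16 and 16 in the Pdgfrβ-KO libraries. The processed pseudogene Rpl6l was listed between 24 and 47 in every library. Rpl24, a regular large subunit gene, was listed at 22, 23, 20 and 11 in the 2-month-old controls, at 21, 20, 11 and 20 in the 12-month-old controls and at 21, 22, 22 and 12 in the Pdgfrβ-KO libraries. Such levels are far under those of other large subunit genes, whose median was 10837. Rpl24, Rps10 and Rpl13a share 47.0, 20.6 and 35.4% of their exonic bases on the same strand with another annotated gene (Gm28037, RPS10-NUDT3 and Gm45713), and each of those partners was listed at 0 in all libraries, so values of these 3 members are uncertain.

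The share of each library taken by the members differed between groups and among replicates. In the 2-month-old controls the 85 genes summed to 4.995, 4.38, 4.32 and 4.31% of the library total, in the 12-month-old controls to 6.10, 5.39, 4.83 and 6.94%, and in the Pdgfrβ-KO libraries to 6.85, 6.82, 6.55 and 5.26%. The mean was 4.50 ± 0.330% (SD, n = 4) at 2 months, 5.82 ± 0.914% in the 12-month-old controls and 6.37 ± 0.753% in the Pdgfrβ-KO libraries. Among the 12-month-old controls only replicate 3 reached into the 2-month-old range, below 2-month-old replicate 1 and above the other 3, while the Pdgfrβ-KO libraries all lay above the 2-month-old libraries and overlapped the controls of their own age. The large subunit genes took 2.17 ± 0.149, 2.82 ± 0.419 and 2.95 ± 0.294% and the small subunit genes 2.06 ± 0.171, 2.67 ± 0.454 and 3.08 ± 0.429% (SD, n = 4 each), in the same order.

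**Figure D1:**
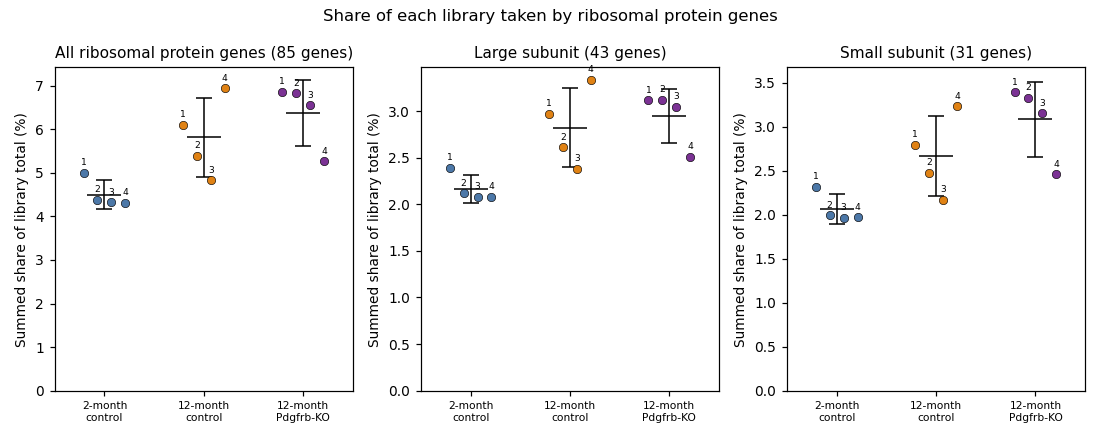
Each point is 1 library (number: replicate), its height is the summed normalized value of the ribosomal protein genes as a percentage of that library's total, and bars give mean ± SD of the 4 libraries of a group. The 2-month-old controls sit between 4.31 and 4.995% for all 85 genes, and the Pdgfrβ-KO libraries between 5.26 and 6.85%.

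Replicates of a group differed by moving most members together. In Pdgfrβ-KO replicate 4 only 6 of the 85 members lay above the mean of their group, with a median deviation of -0.37 on the log2 scale. In 12-month-old control replicate 3 this was 4 of 85, with a median deviation of -0.30, and in 12-month-old control replicate 4 it was 82 of 85, with a median deviation of 0.29. Replicate 1 of the 2-month-old controls had 78 of 85 above the group mean and a median deviation of 0.13. Genes of other classes moved alongside in some libraries and not in others. The 45 small nuclear-encoded subunits of the respiratory chain had a median deviation of -0.43 in Pdgfrβ-KO replicate 4 and of -0.28 in 12-month-old control replicate 3. In 12-month-old control replicate 2 they had 0.26 where the members had -0.05, and in Pdgfrβ-KO replicate 3 they had -0.22 where the members had 0.04. Members cannot be counted as independent observations of a condition, and the counts below are given with and without single libraries.

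The first question was how the members differ between 12-month-old and 2-month-old controls. Most were higher in the older mice: 80 of 85 had a higher level, with a median log2 fold change of 0.33 against -0.01 over all 16399 genes tested, of which 49.1% were above 0. Past an adjusted p of 0.05 in limma (a linear model with moderated variance on log2(value + 1), Benjamini-Hochberg over all genes tested) 30 members rose and 1 fell, where 11.3% of all genes tested rose and 11.4% fell. By class these were 16 of the 43 large subunit genes, 10 of the 31 small subunit genes, 2 of the 3 stalk genes, 2 of the 5 tested paralogs and 0 of the 3 pseudogenes. In 13 members the 2 groups did not overlap, with the older group above in all 13, where 12.3% of all genes tested had the older group above with no overlap.

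The number called depended on single libraries. It ranged from 5 to 53 when each library was left out in turn, with 5 without 2-month-old replicate 4, 6 without replicate 3 and 8 without replicate 2 of the same group, 7, 11 and 19 without 12-month-old replicates 4, 1 and 2, and 53 without 12-month-old replicate 3, while the members' median log2 fold change stayed between 0.24 and 0.42. The genes that rose over the whole table numbered 1255 to 1951 in the same fits. Without the variance trend and robust estimation 7 members rose, where 1457 of 16399 genes rose.

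Rpl29, a large subunit protein whose gene lies on chromosome 9 (chr9:106429454-106431568, plus strand, GRCm38), had the smallest p among the members in the age comparison. Its normalized values were 4568, 4264, 4072 and 4111 in the 2-month-old controls and 8719, 8590, 8470 and 9790 in the 12-month-old controls. The groups lay far apart, and the log2 fold change was 1.06 ± 0.09 (SE, limma, adjusted p = 1.3e-05). In the Pdgfrβ-KO libraries Rpl29 was listed at 7466, 6937, 7012 and 7678, between the other groups and overlapping neither.

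Rpl34, another large subunit gene (chr3:130726831-130730398, minus strand), rose by more. It was listed at 3946, 3767, 3396 and 3283 at 2 months, at 8853, 8840, 6916 and 11282 in the 12-month-old controls and at 13102, 12419, 11379 and 7813 in the Pdgfrβ-KO libraries. Every 12-month-old library, of either genotype, lay above every 2-month-old library, and the log2 fold change with age was 1.30 ± 0.13 (SE, limma, adjusted p = 7.05e-05). Rpl21 (chr5:146832890-146837032, plus strand) was listed at 12050, 11571, 11070 and 11837 at 2 months, at 22110, 21236, 18528 and 27529 in the 12-month-old controls and at 23580, 22959, 22145 and 18392 in the Pdgfrβ-KO libraries. Its log2 fold change with age was 0.93 ± 0.12 (SE, limma, adjusted p = 0.000281), again with no overlap.

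Rpl22 and Rps12 complete the 5 members with the smallest p among those that rose. Rpl22, an RNA-binding large subunit protein with a known role in lymphocyte development, was listed at 4483, 4336, 4299 and 4275 at 2 months, at 5968, 5685, 4923 and 6753 in the 12-month-old controls and at 7267, 6975, 6530 and 5157 in the Pdgfrβ-KO libraries, with a log2 fold change with age of 0.41 ± 0.10 (SE, limma, adjusted p = 0.0122). Rps12, a small subunit protein, was listed at 13968, 10741, 10529 and 11918 at 2 months, at 19500, 19268, 12928 and 23584 in the 12-month-old controls and at 30647, 32455, 22969 and 16419 in the Pdgfrβ-KO libraries. The control groups overlapped in Rps12, through 12-month-old replicate 3, and its log2 fold change with age was 0.65 ± 0.16 (SE, limma, adjusted p = 0.0153). Rpl29, Rpl34, Rpl21 and Rpl22 stayed past the threshold under all 21 alternative settings and Rps12 under 20. These 5 were also the members called without 2-month-old replicate 4.

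**Figure D2:**
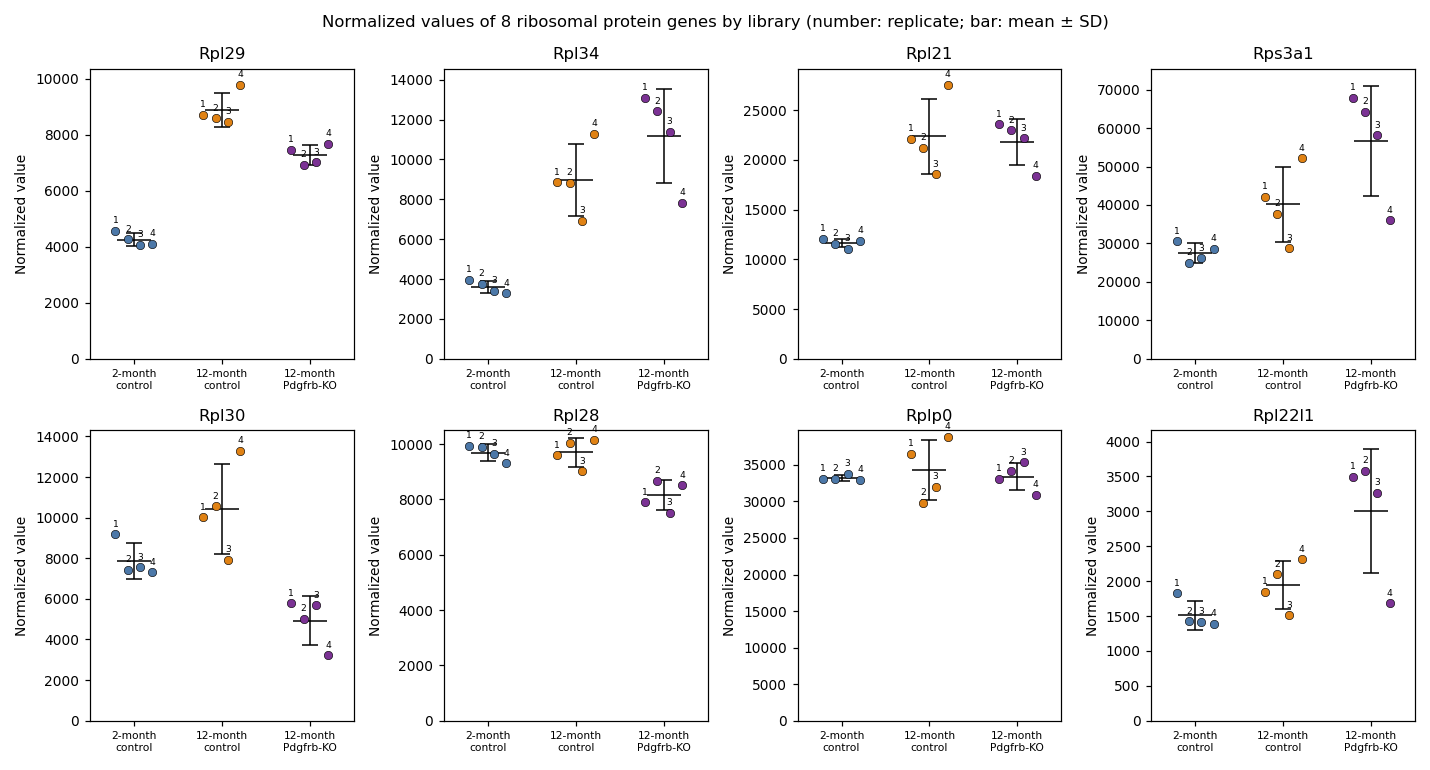
Each panel plots the normalized value of 1 ribosomal protein gene (vertical axis from 0) in the 12 libraries (number: replicate), with mean ± SD of each group of 4. Rpl29, Rpl34 and Rpl21 lie higher in all 12-month-old libraries than at 2 months, Rpl30 and Rpl28 lie lower in the Pdgfrβ-KO libraries than in the controls of the same age, and Rplp0 overlaps across all groups.

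The one member that fell with age was Rps10, at 210, 173, 161 and 190 in the 2-month-old controls against 168, 111, 95 and 140 in the 12-month-old controls. Its groups overlapped by 2-month-old replicate 3, the log2 fold change was -0.54 ± 0.18 (SE, limma, adjusted p = 0.0493), and the call was lost in 14 of 21 alternatives. Summed with the genes near-identical to its coding sequence, among them Rps10-ps2, Rps10 had a log2 fold change of -0.06 (SE 0.13, limma, adjusted p = 0.75). Rps10-ps2 was listed at 135, 134, 169 and 136 in the 2-month-old controls and at 189, 172, 140 and 237 in the 12-month-old controls, a level near that of Rps10 itself.

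The stalk genes split. Rplp0, whose protein anchors the stalk of the large subunit that recruits elongation factors, was listed at 33100, 33101, 33823 and 32962 at 2 months, at 36509, 29853, 32011 and 38817 in the 12-month-old controls and at 33087, 34192, 35356 and 30949 in the Pdgfrβ-KO libraries. All 3 groups overlapped, and the log2 fold change with age was 0.04 with a 95% interval from -0.19 to 0.26. Rplp1 was listed at 12905, 13572, 13512 and 11324, then at 16401, 16682, 13571 and 20912, then at 22341, 23335, 19454 and 13858, with a log2 fold change with age of 0.38 ± 0.13 (SE, limma, adjusted p = 0.048). Rplp2 was listed at 8283, 6463, 6551 and 6892, then at 10440, 10202, 7031 and 12101, then at 14352, 17113, 10430 and 8501, with a log2 fold change with age of 0.48 ± 0.15 (SE, limma, adjusted p = 0.0409). In both the control groups overlapped through 12-month-old replicate 3, and the 2 calls held in 9 and 12 of 21 alternatives. The difference between Rplp0 and the other stalk genes was not tested.

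Next, the 12-month-old Pdgfrβ-KO mice were compared with controls of the same age. The members were on balance higher but few differed past the threshold: 67 of 85 had a higher level in the Pdgfrβ-KO group, with a median log2 fold change of 0.17 against -0.01 over the 16344 genes tested, of which 48.4% were above 0. In limma 0 members rose and 2 fell past an adjusted p of 0.05, where 4.96% of all genes tested rose and 4.46% fell, or 9.42% in either direction. At an unadjusted p under 0.05, 9 members were higher and 6 were lower. In 5 members the groups did not overlap, with the Pdgfrβ-KO group below in each (Rpl27, Rpl28, Rpl29 and Rpl30 among them), where 17.1% of all genes tested did not overlap, 9.05% with the Pdgfrβ-KO group above.

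Pdgfrβ-KO replicate 4, the library in which the members lay low, decided the count. Without it 11 members rose, Rpl13a, Rpl22l1, Rpl39, Rpl41, Rps3, Rps3a1, Rps10, Rps13, Rps15a, Rps20 and Rps29, and the median log2 fold change was 0.29. Over all genes 1054 of 16147 rose in that fit, against 810 of 16344 with the library. The largest log2 fold change among these 11 was 0.96 for Rpl41, a very short large subunit peptide (limma, adjusted p = 0.0255), followed by 0.87 for Rps29 (adjusted p = 0.0389). Rpl30 fell with that library and without it. The values of Rpl13a and Rps10 are uncertain, as stated above. In the fit of all 8 libraries, summing with near-identical genes gave Rps13 a log2 fold change of 0.42 in place of 0.59. For Rps15a it gave 0.31 in place of 0.45.

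Rpl30 (chr15:34440505-34443640, minus strand), a large subunit protein that contacts the small subunit in the assembled ribosome, fell most. It was listed at 10019, 10564, 7911 and 13287 in the 12-month-old controls and at 5783, 5028, 5687 and 3221 in the Pdgfrβ-KO libraries. The groups did not overlap, and the log2 fold change was -1.10 ± 0.21 (SE, limma, adjusted p = 0.00813), past the threshold under all 21 alternatives. In the 2-month-old controls Rpl30 was listed at 9181, 7434, 7551 and 7316, and each Pdgfrβ-KO library lay below each of these as well. With age in the controls its log2 fold change was 0.39 ± 0.14 (SE, limma, adjusted p = 0.0688).

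Rpl29, Rpl27 and Rpl28 lay lower in every Pdgfrβ-KO library than in every 12-month-old control but did not pass the test. Rpl27 was listed at 4445, 4694, 4657 and 5372 against 3782, 3728, 4114 and 3708, with a log2 fold change of -0.32 ± 0.10 (SE, limma, adjusted p = 0.0748). Rpl28 was listed at 9596, 10035, 9019 and 10161 against 7898, 8673, 7507 and 8513, with a log2 fold change of -0.25 ± 0.10 (SE, limma, adjusted p = 0.148). For Rpl29 the log2 fold change was -0.29 ± 0.10 (SE, limma, adjusted p = 0.101). These genes were picked out in this comparison after their values were seen. Among all members, separation with the Pdgfrβ-KO group below was no more frequent than among all genes tested.

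**Figure D3:**
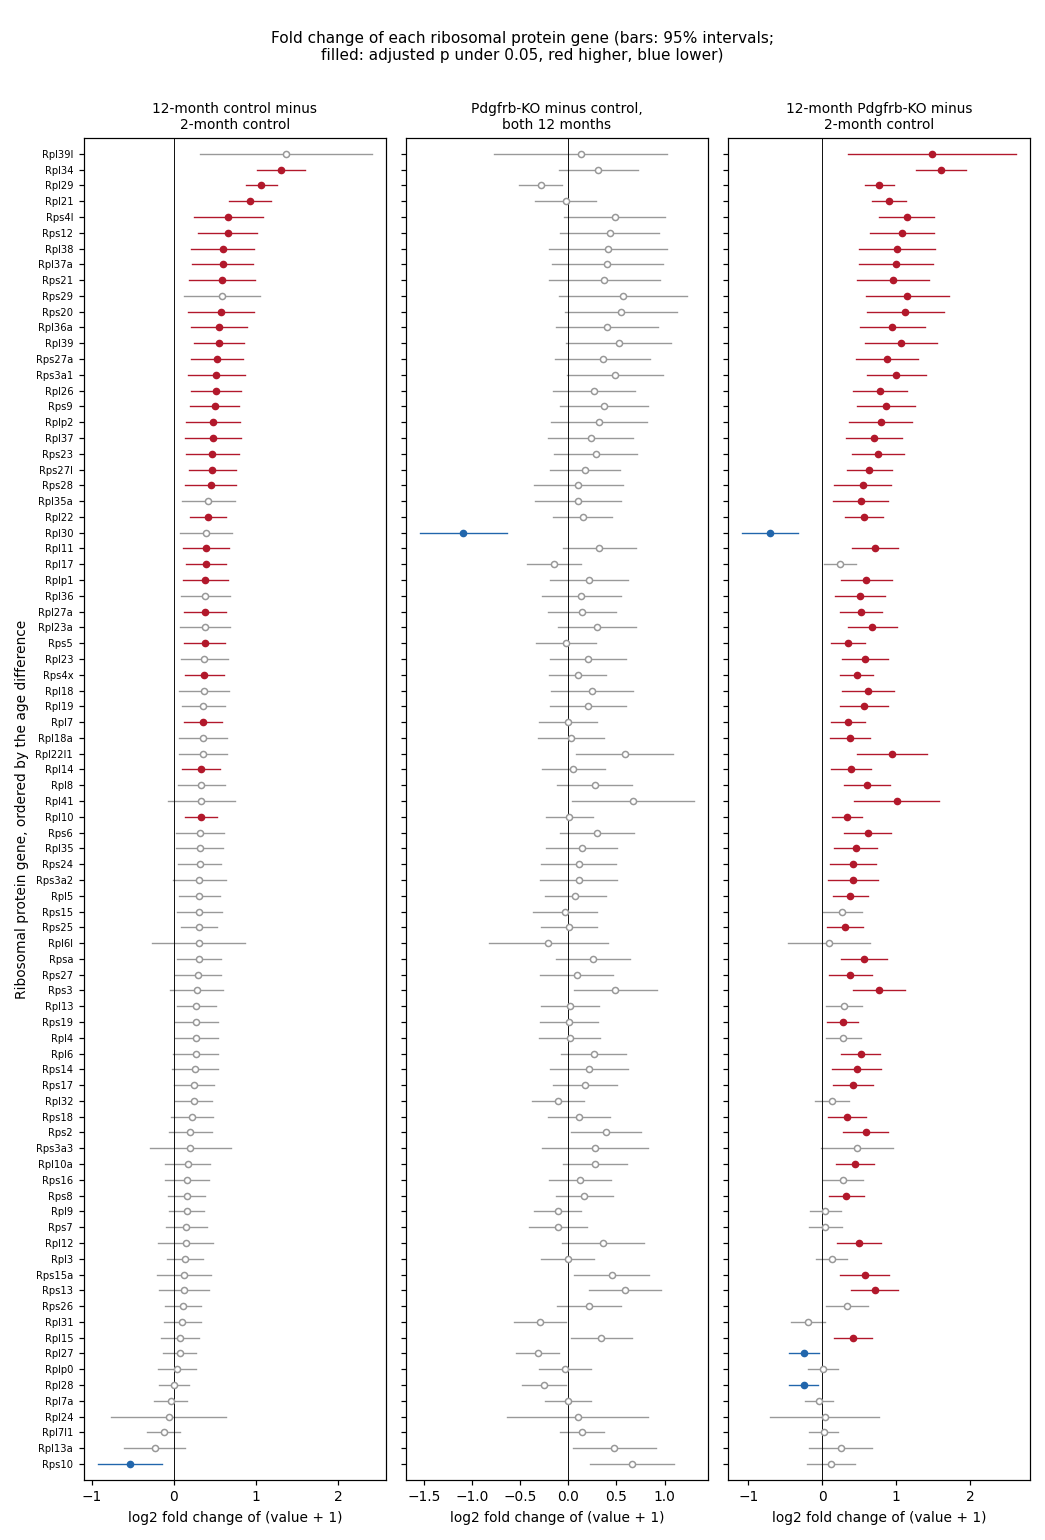
Each row is 1 of 84 ribosomal protein genes, ordered by the age difference, with its log2 fold change of (value + 1) on the horizontal axis in the 3 comparisons, its 95% interval as a bar, and a filled point where the adjusted p is under 0.05 (red higher, blue lower). Most points lie right of 0 with age and fewer in the genotype comparison, where Rpl30 stands at -1.10.

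The 12-month-old Pdgfrβ-KO libraries were finally set beside the 2-month-old controls, a comparison in which age and genotype both differ. Members were higher in the Pdgfrβ-KO group with a median log2 fold change of 0.50 against -0.02 over the 16370 genes tested, and 79 of 85 had a higher level where 48.9% of all genes did. Past an adjusted p of 0.05 in limma 62 members rose and 4 fell, where 22.4% of all genes tested rose and 22.7% fell. Counted in either direction, 45.1% of all genes tested were called. The 62 included 30 of 43 large subunit genes, 25 of 31 small subunit genes, 2 of 3 stalk genes, 4 of 5 paralogs (all but Rpl7l1) and 1 of 3 pseudogenes (Rps3a2). In 39 members the groups did not overlap, where 40.8% of all genes tested did not, 37 of them with the Pdgfrβ-KO group above, where 20.4% of all genes tested had that group above with no overlap.

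It shares the 2-month-old controls with the age comparison, so both comparisons rest in part on the same libraries. Of the 30 members that rose with age, 29 also rose here, and the exception was Rpl17. By group means 62 members were ordered from 2-month-old control through 12-month-old control to Pdgfrβ-KO. The share of all genes with this order was not computed, so the count is a description only.

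The 5 members with the smallest p among those higher in the Pdgfrβ-KO group were Rpl34, Rpl29, Rpl21, Rps4l and Rps3a1. Rpl34 had a log2 fold change of 1.61 ± 0.15 (SE, limma, adjusted p = 3.28e-05), Rpl21 of 0.90 ± 0.11 (adjusted p = 0.000114) and Rpl29 of 0.77 ± 0.09 (adjusted p = 0.000105). Rps3a1, an abundant small subunit gene, was listed at 30545, 24942, 26086 and 28651 at 2 months, at 42052, 37657, 28701 and 52164 in the 12-month-old controls and at 67943, 64246, 58126 and 36035 in the Pdgfrβ-KO libraries. The lowest of the latter, replicate 4, still lay above every 2-month-old library, and the log2 fold change was 1.00 ± 0.18 (SE, limma, adjusted p = 0.00152).

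Among the 4 members lower in the Pdgfrβ-KO group were Rpl30 (log2 fold change -0.71 ± 0.17, SE, limma, adjusted p = 0.00763), Rpl28 (-0.25 ± 0.09, adjusted p = 0.042) and Rpl27 (-0.25 ± 0.09, adjusted p = 0.0484). Rpl28 and Rpl27 lay near the threshold and were lost in 10 and 13 of 21 alternatives, while Rpl30 held in all 21. At 2 months Rpl28 was listed at 9932, 9905, 9637 and 9300 and Rpl27 at 4669, 4799, 4757 and 4046. Rplp0 again showed little difference, with a log2 fold change of 0.00 and a 95% interval from -0.20 to 0.21.

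Some paralogs can replace their partners in the ribosome, and each paralog was read beside its partner. Rpl22l1, the paralog of Rpl22, was listed at 1823, 1425, 1413 and 1388 at 2 months, at 1850, 2100, 1511 and 2311 in the 12-month-old controls and at 3494, 3585, 3265 and 1681 in the Pdgfrβ-KO libraries. Pdgfrβ-KO replicates 1 to 3 lay above all 8 control libraries and replicate 4 among them. With age the log2 fold change of Rpl22l1 was 0.35 ± 0.13 (SE, limma, adjusted p = 0.0761), with genotype 0.59 ± 0.23 (adjusted p = 0.135), and between Pdgfrβ-KO and 2-month-old libraries 0.94 ± 0.22 (adjusted p = 0.00535), where Rpl22 had 0.41, 0.15 and 0.56.

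Rps27l, a paralog of Rps27 known as a target of p53, was listed at 452, 371, 423 and 388 at 2 months, at 475, 734, 523 and 553 in the 12-month-old controls and at 660, 807, 589 and 518 in the Pdgfrβ-KO libraries. It rose with age without overlap by a log2 fold change of 0.47 ± 0.13 (SE, limma, adjusted p = 0.0251), a call lost in 6 of 21 alternatives. Its partner Rps27 was listed at 7720, 7316, 7156 and 6730, then at 8787, 8468, 7195 and 11495, then at 10683, 9447, 10773 and 7177, with overlapping control groups and 0.29 ± 0.13 with age (adjusted p = 0.115). Whether the paralog and its partner differ in their response was not tested.

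Rps4l, annotated as a transcribed processed pseudogene, was listed at 348, 357, 299 and 384 at 2 months, at 356, 796, 565 and 558 in the 12-month-old controls and at 759, 976, 536 and 857 in the Pdgfrβ-KO libraries. Its log2 fold change was 0.66 ± 0.19 with age (SE, limma, adjusted p = 0.0294) and 1.14 ± 0.17 between Pdgfrβ-KO and 2-month-old libraries (adjusted p = 0.000453). Its X-linked partner Rps4x was listed at 26890, 25927, 25920 and 25824, then at 36245, 31035, 29483 and 39262, then at 38078, 36893, 38729 and 31164, with no overlap between either 12-month-old group and the 2-month-old controls and 0.37 ± 0.11 with age (adjusted p = 0.028). The age call of Rps4l was lost in 10 of 21 alternatives (adjusted p up to 0.0884) and that of Rps4x in 7 (up to 0.14), each of them among others without 12-month-old control replicate 4. Rpl39, also on the X chromosome, was listed at 2035, 1656, 1691 and 1612, then at 2552, 2681, 1901 and 3196, then at 4408, 4542, 4302 and 2053, with 0.54 ± 0.14 with age (adjusted p = 0.017), a call lost in 3 of 21 alternatives. Its paralog Rpl39l had a log2 fold change with age of 1.36 ± 0.48 (adjusted p = 0.0604) at values near the minimum of 10.

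Rpl7l1, a paralog of Rpl7 that acts in the assembly of the large subunit, was listed at 1283, 1199, 1285 and 1377 at 2 months, at 1283, 1028, 1274 and 1148 in the 12-month-old controls and at 1254, 1352, 1229 and 1367 in the Pdgfrβ-KO libraries. All groups overlapped, and the log2 fold change with age was -0.12, with a 95% interval from -0.32 to 0.08. Its partner Rpl7 was listed at 18188, 17367, 17489 and 17780, then at 23057, 21251, 19852 and 26982, then at 23755, 23008, 24780 and 18995, rising with age without overlap by 0.35 ± 0.11 (SE, limma, adjusted p = 0.0313), a call lost in 8 of 21 alternatives. Rpl10l, the testis paralog of the X-linked Rpl10, was listed at 0 in all libraries. Rpl10 was listed at 12805, 13153, 12543 and 11943, then at 16397, 14653, 14993 and 17404, then at 16366, 16306, 16670 and 14455, with 0.33 ± 0.09 with age (adjusted p = 0.0236), a call lost in 6 of 21 alternatives. Neither Rpl7 nor Rpl10 passed without 12-month-old control replicate 4 (limma, adjusted p = 0.0708 and 0.0584).

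Ribosomal protein genes have left many processed copies in the mouse genome, and reads can be shared between a gene and its copies. Comparison of each member's coding sequence with the GENCODE vM21 transcripts (at least 90% identity over at least 100 bases and 50% of the shorter sequence) found 1113 such genes for 79 members, 1093 of them annotated as pseudogenes and 155 with a mean of at least 10. Over the 12 libraries their summed level had a median of 0.932% of the member's own, and it was above 10% in 3 members, Rpl24, Rps10 and Rpl13a. In single groups some copies weighed more. At 2 months those of Rpl34 summed to a mean of 1196 beside 3598 for Rpl34, and those of Rpl29 to 775 beside 4254. In the 12-month-old controls those of Rps13 summed to 1021 beside 7230 and those of Rps15a to 858.5 beside 7250. With each member summed with its copies 31 members rose and 0 fell with age, 0 rose and 2 fell with genotype, and 63 rose and 4 fell between Pdgfrβ-KO and 2-month-old libraries. The number of all genes called was not recorded for these fits. How reads that match a gene and a copy equally well were counted is not known. The sums hold only reads assigned to a gene or a copy and cannot restore any that were left out.

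In a few pairs the copy differed between groups by far more than the member. The pseudogene Rpl34-ps1 on chromosome 6 matches 351 coding bases of Rpl34 with 2 substitutions, and Gm8210 on chromosome 1 and Gm13841 on chromosome 5 each match 480 coding bases of Rpl29 with 3. Gm12191 on chromosome 11 matches 345 coding bases of Rpl30 with 1 substitution, and Rps13-ps1 on chromosome 8 matches 453 coding bases of Rps13 with 2. The stretches below are 60 bases of the coding sequence of the member and of its copy, from GENCODE vM21 (GRCm38), with the differing bases in capitals, and show how little separates a read of one from a read of the other.
Rpl34, coding bases 102 to 161: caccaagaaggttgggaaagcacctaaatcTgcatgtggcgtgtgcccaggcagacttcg
Rpl34-ps1: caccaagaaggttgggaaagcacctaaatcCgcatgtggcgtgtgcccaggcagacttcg
Rpl29, coding bases 42 to 101: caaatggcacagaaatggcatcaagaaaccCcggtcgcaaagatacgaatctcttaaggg
Gm8210: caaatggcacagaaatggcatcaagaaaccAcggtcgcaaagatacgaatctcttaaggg
Rpl30, coding bases 66 to 125: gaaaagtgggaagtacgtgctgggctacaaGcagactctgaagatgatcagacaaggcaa
Gm12191: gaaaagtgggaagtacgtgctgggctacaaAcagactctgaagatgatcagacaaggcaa
In each pair the 2 stretches differ at a single base.

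Rpl34-ps1 was listed at 1407, 1049, 1123 and 1131 in the 2-month-old controls, at 108, 67, 62 and 66 in the 12-month-old controls and at 84, 87, 72 and 48 in the Pdgfrβ-KO libraries. Gm8210 was listed at 314, 428, 283 and 306 at 2 months and at no more than 10 in any 12-month-old library, and Gm13841 at 270, 375, 320 and 251 at 2 months and at no more than 14 later. These copies were thus high in the group in which Rpl34 and Rpl29 themselves were low. Summed with all its copies, Rpl34 rose with age by a log2 fold change of 0.90 ± 0.13 (SE, limma, adjusted p = 0.000745) in place of 1.30. Summed in the same way, Rpl29 rose by 0.85 ± 0.09 (limma, adjusted p = 7.3e-05) in place of 1.06. Reads that matched a gene and its copy equally well may be missing from these sums.

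Gm12191 was listed at 64, 71, 70 and 56 at 2 months, at 90, 106, 69 and 86 in the 12-month-old controls and at 252, 261, 269 and 222 in the Pdgfrβ-KO libraries, where Rpl30 was low. Its level is small beside that of Rpl30, and the summed log2 fold change between Pdgfrβ-KO and control at 12 months was -1.03 ± 0.20 (SE, limma, adjusted p = 0.0103) in place of -1.10. Rps13-ps1 was listed at 9, 474, 56 and 15 at 2 months, at 1458, 930, 563 and 883 in the 12-month-old controls and at no more than 94 in the Pdgfrβ-KO libraries. Within the 2-month-old group replicate 2 stood apart from the other 3 libraries. The source of the differences in these copies was not tested.

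**Figure D4:**
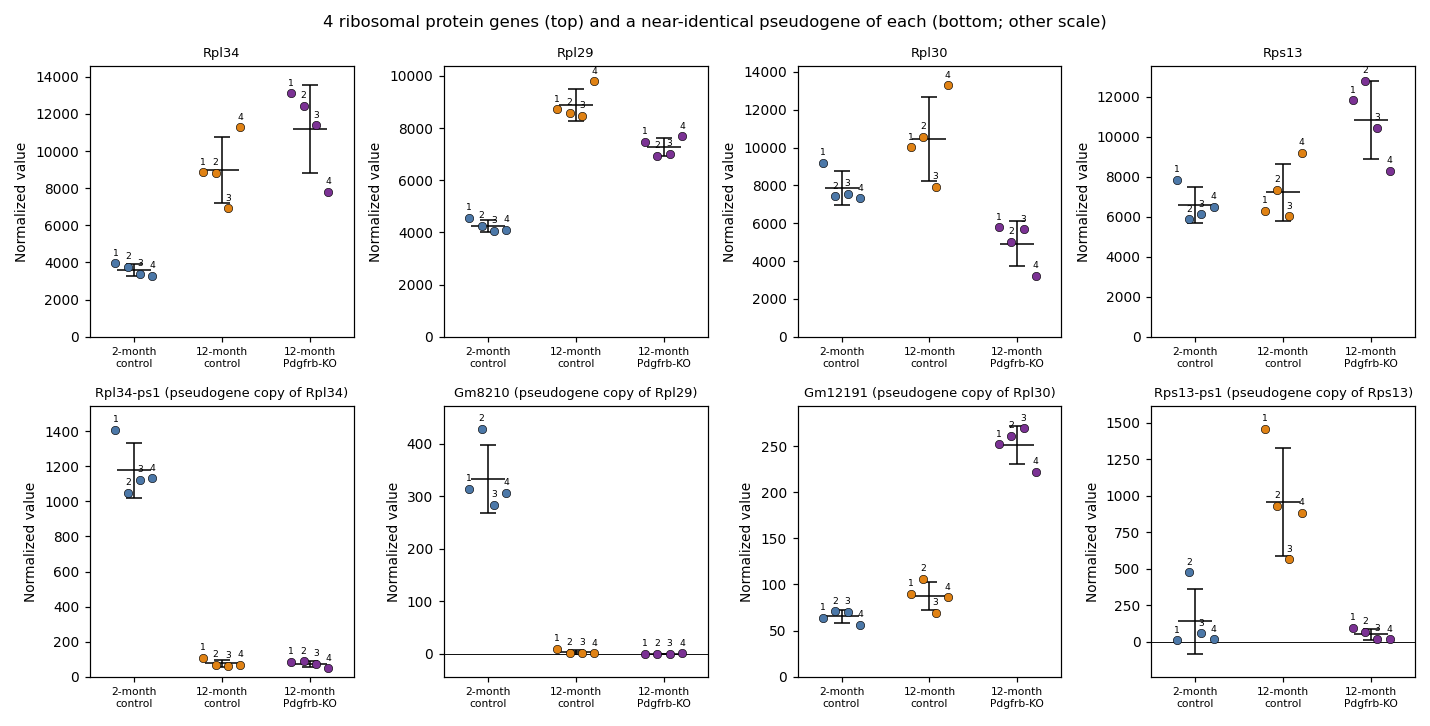
The upper panels plot the normalized values of Rpl34, Rpl29, Rpl30 and Rps13 in the 12 libraries (number: replicate) and the lower panels those of a near-identical pseudogene of each on a scale of its own, with mean ± SD of each group of 4. Rpl34-ps1 and Gm8210 are high in the 2-month-old controls, Gm12191 in the Pdgfrβ-KO libraries and Rps13-ps1 in the 12-month-old controls and in 2-month-old replicate 2.

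Ribosomal protein mRNAs are short, and short genes as a class were higher in the 12-month-old libraries. Among genes that are no members, the median log2 fold change with age was 0.12 for 1193 genes with under 1 kb of exonic sequence, 0.15 for 2029 genes of 1 to 2 kb, 0.03 for 6858 genes of 2 to 5 kb and -0.10 for 6234 longer genes. The members had 0.38, 0.33, 0.29 and 0.22 in the same bins, with 16, 33, 34 and 2 members. Between Pdgfrβ-KO and control at 12 months the other genes had 0.08, 0.10, 0.03 and -0.10 and the members 0.19, 0.17, 0.18 and 0.28. Members thus lay above the other genes in each bin of exonic length, in the last by only 2 genes. Exonic length here joins all annotated exons of a gene and can far exceed its main transcript, as in Rps19 (4685 against 774 bases). Members were therefore not compared with genes of equal mRNA length, here or with the length trend removed.

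With the trend of the log2 values on exonic length removed in each library, an alternative chosen after seeing the data, 10 members rose and 1 fell with age and the median log2 fold change was 0.22, where 1785 of 16399 genes tested rose and 1632 fell. The share of members called higher was then near that of all genes. By direction, 72 of the 85 members had a log2 fold change above 0, and the median over all genes was -0.004. In the genotype comparison 0 rose and 5 fell (median 0.08), where 906 of 16344 genes rose and 802 fell. Between Pdgfrβ-KO and 2-month-old libraries 43 rose and 6 fell (median 0.30), where 3609 of 16370 genes rose and 3455 fell. The part of length in the members' difference was not tested beyond this.

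**Figure D5:**
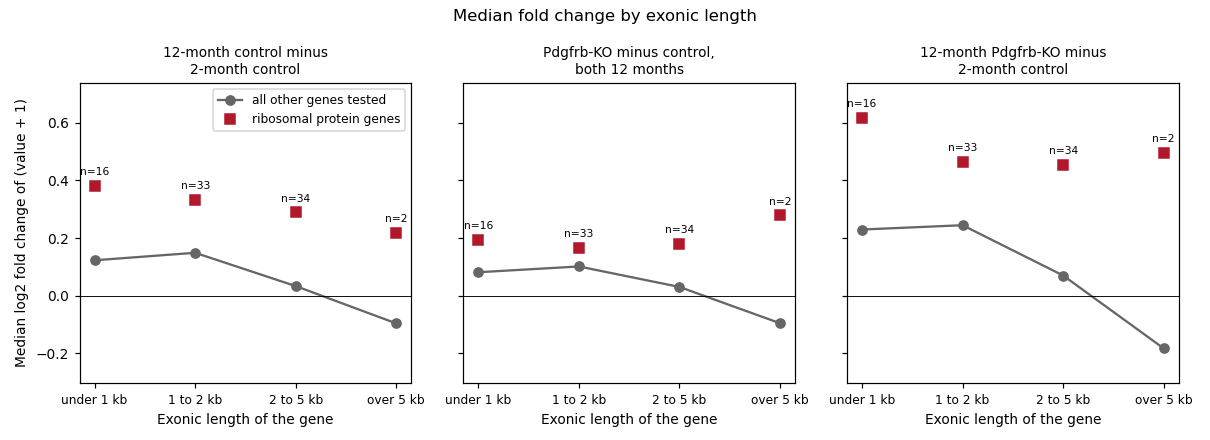
The horizontal axis groups genes by exonic length and the vertical axis gives the median log2 fold change of (value + 1) in the 3 comparisons, for all other genes tested (grey circles) and for the ribosomal protein genes (red squares, with their number). With age the grey circles stand at 0.12, 0.15, 0.03 and -0.10 from the shortest to the longest genes, and the red squares lie above them throughout.

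Other genes of the translation machinery were read from lists set beside the members, beginning with ribosome parts outside the name rule. Of these, Fau, Rack1, Rpl36al and Rps27rt did not pass the test with age or with genotype. Fau, which encodes a fusion containing small subunit protein S30, rose between Pdgfrβ-KO and 2-month-old libraries from a mean of 8675 to 12917 (log2 fold change 0.55 ± 0.17, SE, limma, adjusted p = 0.02). With age Fau had 0.36 (adjusted p = 0.0899), close to the members' median.

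Further mRNAs known to carry a TOP element, mostly elongation and initiation factors, formed a list of 17. With age 5 of the 17 rose and 1 fell, with a median log2 fold change of 0.17. Eef1d, a subunit of the elongation factor 1 exchange complex, rose by 0.54 ± 0.12 (SE, limma, adjusted p = 0.00915), Nap1l1, a histone chaperone, by 0.34 ± 0.09 (adjusted p = 0.0173) and Eif3f, a subunit of initiation factor eIF3, by 0.31 ± 0.09 (adjusted p = 0.0245). Naca, of the nascent polypeptide-associated complex, and Eef1b2, another exchange factor subunit, rose by 0.32 and 0.45 (limma, adjusted p = 0.0313 and 0.0433). Hnrnpa1, a splicing regulator, fell by 0.32 on the log2 scale (adjusted p = 0.0432). With genotype 0 of 17 passed in limma, and between Pdgfrβ-KO and 2-month-old libraries 6 rose and 0 fell, led by Nap1l1 with 0.71 ± 0.11 (limma, adjusted p = 0.000464).

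Genes of ribosome production gave other counts. Of 66 ribosome assembly genes 2 rose and 5 fell with age, with a median log2 fold change of -0.07. Nop56, a core protein of box C/D snoRNPs, fell by 0.66 on the log2 scale (limma, adjusted p = 0.00147), Utp4, a part of the small subunit processome, by 0.52 (adjusted p = 0.00188) and the nucleolar GTPase Gnl3 by 0.45 (adjusted p = 0.00329), Nop14 and Wdr43 fell by 0.45 and 0.39, whereas Imp3 rose by 0.44 (adjusted p = 0.0105) and Sbds, which releases eIF6 from new large subunits, by 0.28 (adjusted p = 0.03). With genotype 0 of 66 passed, and between Pdgfrβ-KO and 2-month-old libraries 10 rose and 13 fell. Of 15 genes of ribosomal DNA transcription, 1 rose and 0 fell with age, Polr1d (0.59 ± 0.10, SE, limma, adjusted p = 0.00189), a subunit that RNA polymerases I and III share. Of 34 initiation factors 2 rose and 2 fell with age, Eif3m and Eif3k against Eif4a2 and Eif5, and 0 passed with genotype.

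Genes around mTOR and TOP regulation went both ways. Of 32 tested 3 rose and 7 fell with age. Sesn2 and Ddit4, stress-induced inhibitors of mTOR complex 1, fell by 0.73 and 0.83 on the log2 scale (limma, adjusted p = 0.00026 and 0.000381), and Larp4 by 0.53 (adjusted p = 0.00697), while Eif4ebp1, a repressor of cap-dependent translation that mTOR inactivates, rose by 0.53 (adjusted p = 0.0136) and Lamtor1 and Lamtor4, of the complex that docks mTOR to lysosomes, by 0.51 and 0.69 (adjusted p = 0.0138 and 0.0194). With genotype 1 rose and 1 fell: Sesn1 by 0.55 ± 0.09 (SE, limma, adjusted p = 0.00466) and Myc, a transcription factor that drives ribosome production, by -0.43 ± 0.10 (adjusted p = 0.0205).

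Nuclear-encoded genes of mitochondria were read for comparison. Of 45 small nuclear-encoded respiratory subunits 14 rose and 0 fell with age (median log2 fold change 0.37), 1 rose with genotype, Ndufc2, a complex I subunit, by 0.98 ± 0.23 (SE, limma, adjusted p = 0.0229; list median 0.38), and 37 rose between Pdgfrβ-KO and 2-month-old libraries (median 0.71). Of 77 mitochondrial ribosome genes 15 rose and 0 fell with age (median 0.26), 1 rose with genotype, Mrps30 by 0.50 ± 0.14 (adjusted p = 0.0479), and 54 rose between Pdgfrβ-KO and 2-month-old libraries (median 0.47). The pattern of the cytosolic ribosomal protein genes is therefore not shown to be particular to them.

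Markers of the cell types in the fraction differed between the same groups. The RNA is that of a mixture, so that more cells of a type and more RNA per cell cannot be told apart. The 10 macrophage markers rose in 8 cases with age and in 8 with genotype, and their summed normalized values were 15963 to 23150 at 2 months, 33237 to 46518 in the 12-month-old controls and 66647 to 113811 in the Pdgfrβ-KO libraries, with none at 0. The lowest macrophage sum of the Pdgfrβ-KO group was that of replicate 4 (66647), and that of the 12-month-old controls was in replicate 1 (33237). Control replicate 3 of that age had 46065. Fibroblastic progenitor markers took 2.80 ± 0.129% of the library at 2 months, 1.38 ± 0.0825% in the 12-month-old controls and 2.36 ± 0.319% in the Pdgfrβ-KO libraries (SD, n = 4 each). Gene by gene these 10 markers went both ways: 5 rose and 2 fell with age, and 2 rose and 3 fell with genotype. Their summed share thus does not give the direction of most of them. With age all 8 Schwann cell markers and 7 of 10 mural cell markers fell, and with genotype all 8 skeletal muscle markers fell. Plasma cell markers summed to 4425 to 4884, then 24231 to 37269, then 13546 to 42749, with 4 of 7 higher and 1 lower with age. Of 10 proliferation markers 1 fell with age and 8 rose with genotype, and their sum ran from 12085 to 12883, from 10206 to 12243 and from 13415 to 17704. Erythroid markers summed to 26625 to 44590, then 46591 to 101228, then 64478 to 199549, with 2 of 5 tested higher with age and 3 of 6 with genotype. All 10 mitochondrially encoded genes fell with age, from a sum of 300703 to 480044 down to 116978 to 195019, and 3 of 10 fell with genotype. The part of these differences in the members' levels was not tested.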

How the data were processed

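RNA was sequenced from the stromal vascular fraction of inguinal fat of 12 mice, 1 library each, 4 per group. Per the labels and methods, the authors made polyadenylated, strand-specific libraries, trimmed reads with Trim Galore (version 0.6.0), aligned them to GRCm38 with STAR (2.7.0e) and normalized counts with DESeq2 (1.26.0). The gene counter and the annotation are not given in the sources used here. The deposited values are read counts divided by DESeq2 size factors and rounded to whole numbers by the authors, and are treated as a score, not as counts, so that raw depth is unknown and no count model was used. The 2 deposited tables hold 55536 genes, and the 12-month-old controls had 100% equal values in both. Of the names, 27 had been turned into dates, 1 identifier was wrong, 4 lines held no gene and 5 columns were empty.

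A gene was tested where at least 4 of the 8 libraries of a comparison reached 10. Values were taken as log2(value + 1) and fitted with limma (3.58.1, R 4.3.3, with trend and robust estimation) in the 8 libraries of each comparison, with Benjamini-Hochberg adjustment over all genes tested and a threshold of 0.05. Fold changes on this scale understate the change of low genes. In a simulated age comparison of 16152 genes the fit called 50 of 67 that had been shifted by 1.5 times and 64 of 67 shifted by 2 times. In a simulated genotype comparison of 16099 genes these were 38 and 61 of 67. Most members moved together within libraries, and their summed share had an SD of 0.330% at 2 months and 0.914% in the 12-month-old controls. How often shifts of these sizes would be called in the members was not tested. Copies were searched with BLAST (2.17.0) in GENCODE vM21, and promoters came from RefSeq. Tables were handled in Python 3.11.15 with pandas 2.3.3 and drawn with matplotlib 3.10.9.

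The members and lists were chosen with earlier results of these data known. Values of every library were given for stalk members, paralogs and their partners, up to 5 members with the smallest p in each direction of each comparison, and the 3 highest and 3 lowest means. Other lists gave up to 3 genes in each direction. Rpl27, Rpl28 and Rpl29 in the genotype comparison and the pseudogene copies were named after their values were seen. Replicates are separate mice. Deviations of same-numbered libraries of different groups had correlations from -0.25 to 0.34, and the main fits did not pair libraries by number. These values cannot exclude that libraries of the same number share something. With a replicate block all genes called with genotype went from 810 higher and 729 lower to 1200 and 1180. Alternatives covered pseudocounts, filters, normalization, variance estimation, a replicate block and each library left out. Some genes are not reported here by name, although the counts include them.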

Additional observations from a re-analysis of the deposited data

Results flagged for a closer look

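A library was marked where the gap between the highest or lowest of the 4 values of a group and its nearest neighbour was large against the group's range (Dixon's 95% critical value). Of 93 groups of values 14 were marked, where chance gives about 1 in 20. Replicate 1 of the 2-month-old controls stood high in the summed share of the large subunit genes (2.39%) and of the small subunit genes (2.32%), in Rpl30 (9181), in Rpl22l1 (1823) and in Rps4x (26890). In the same group Rplp0 was high in replicate 3 (33823) and Rpl6l in replicate 2 (36). Replicate 4 of the Pdgfrβ-KO group stood low in the summed share of the large subunit genes (2.51%), in Rpl22l1 (1681), in Rpl39 (2053), in Rpl10 (14455) and in Rpl24 (12). Rpl39l was high in Pdgfrβ-KO replicate 1 (43), and Rpl24 was low in 12-month-old control replicate 3 (11). The values of Rpl6l, Rpl24 and Rpl39l are near the minimum of 10, and the sums and their members are not independent of each other.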

How the results depend on the processing

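Each count was recomputed under 21 alternatives, of which 2 (members summed with their copies, and the trend on exonic length removed) were chosen after seeing the data. No named value changed sign past the threshold. The cause of the changes below was not tested. With age the number of members that rose was 7 without trend and robust estimation, 55 with array weights, 9 with all 12 libraries in one fit and 10 with the length trend removed. All genes that rose numbered 1457, 2178, 1309 and 1785 in the same order, against 1853 in the main fit. The number of members that fell with age was 0 with no filter, TMM factors, equal library totals, no trend and robust estimation, array weights, all 12 libraries in one fit and the copies summed. All genes that fell with age numbered 1209 in the fit of all 12 libraries. Between Pdgfrβ-KO and control at 12 months 1 member rose with no filter, TMM factors, quantile normalization, equal totals or the replicate block and 2 in the fit of 12 libraries, while 4 fell in the fit of 12 libraries and 5 with the length trend removed. All genes in that comparison numbered 1289 higher and 1253 lower in the fit of 12 libraries. Between Pdgfrβ-KO and 2-month-old libraries 2 members fell with no filter, TMM factors, no trend and robust estimation or the replicate block, and the members' median log2 fold change was 0.30 with the length trend removed. The replicate block left 26 members higher and 1 lower with age, 1 and 2 with genotype, and 59 and 2 between Pdgfrβ-KO and 2-month-old libraries, and raised all genes lower with genotype to 1180. All genes higher numbered 1592, 1200 and 3360 in these fits. Leaving out 1 library at a time gave 5 to 53 members higher and 0 to 1 lower with age (all genes 1255 to 1951 higher and 1101 to 2010 lower), and 0 to 11 higher and 1 to 2 lower with genotype (all genes 451 to 1054 higher and 344 to 824 lower). Between Pdgfrβ-KO and 2-month-old libraries it gave 45 to 68 members higher and 2 to 3 lower (all genes 2871 to 3680 higher and 2768 to 3882 lower).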
